A study of Homo sapiens with 9 samples.

Results

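HIPK2 (ENSG00000064393), a nuclear serine/threonine kinase, was followed here together with its paralogues HIPK1 and HIPK3, the ubiquitin ligases SIAH1, SIAH2 and WSB1, the p53 regulators MDM2 and MDM4, and the p53 target CDKN1A. These 9 genes were taken by name from a table of 14943 genes, and all 9 were present with between 480 and 7064 reads in every library. HIPK2 was selected on its fold change, being lower with the mimic in these same libraries, so its values are given as a description without a test. The other 8 were selected as relatives or as known partners of HIPK2 and p53.

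The cells were SH-Sy5y, an established human neuroblastoma line with adrenergic (sympathetic neuron-like) features. They were transfected for 48 h with a synthetic mimic of miR-1229-3p and analysed by sequencing of polyadenylated RNA. Ctrl. libraries had 40 pmol of a negative control oligonucleotide, the 10 nM libraries had 20 pmol of mimic topped up with 20 pmol of negative control, and the 20 nM libraries had 40 pmol of mimic alone. Each group held 3 libraries. A mimic delivers far more of a microRNA than a cell makes, in a dividing tumour line, and the RNA of a pair of wells was pooled where possible, so p-values measure the spread between these libraries, which may be technical in part.

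Homeodomain-interacting protein kinases phosphorylate transcription factors and cofactors in the nucleus. HIPK2 is best known for phosphorylating p53 on a serine linked to apoptosis after severe DNA damage, and it is kept scarce in unstressed cells because SIAH1, SIAH2, WSB1 and MDM2 mark the protein for the proteasome. MDM2 and its relative MDM4 also hold p53 itself in check, MDM2 by ubiquitination and MDM4 by binding its activation domain, and CDKN1A encodes p21, the cyclin-dependent kinase inhibitor through which p53 halts the cell cycle. Much of this circuit acts on proteins, which were not measured here, whereas the libraries report messenger RNA.

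A microRNA binds messages mainly through its seed, the bases 2 to 8 from its 5′ end, pairing with complementary stretches of the 3′ untranslated region (3′ UTR). The mature strand (RefSeq, chr5:179798278-179798300, minus strand, GRCh38.p14) is shown with the seed in capitals because every match below is its complement.
miR-1229-3p: cUCUCACCacugcccucccacag
The longest 3′ UTR of each gene in GENCODE 44 (GRCh38.p14) was searched on the messenger strand, where an 8-mer match reads GGTGAGAA, a 7-mer GGTGAGA or GTGAGAA, and a 6-mer GTGAGA, counting each place once under its longest match. All 7-mer and 8-mer matches in these 3′ UTRs follow with the bases before them, the match in capitals. They show which of the 9 genes offer the mimic a seed match in the 3′ UTR and which do not.
HIPK2, chr7:139565502-139565531, minus strand: atttttattttgattgaaagatGGTGAGAA
HIPK2, chr7:139561767-139561796, minus strand: attgtaatattactaactgtagGGTGAGAA
HIPK1, chr1:113975408-113975437, plus strand: ctgtgcgttgctaccttgcttctGTGAGAA
HIPK1, chr1:113975427-113975456, plus strand: ttctgtgagaattcaggaagcaGGTGAGAg
HIPK1, chr1:113976842-113976871, plus strand: atttccaacttcttcctttccgGGTGAGAg
MDM2, chr12:68839913-68839942, plus strand: gaaatttattcacatatatcaaaGTGAGAA
MDM4, chr1:204549505-204549534, plus strand: tctcttgaagccatgtagcttatGTGAGAA

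HIPK2, on the minus strand of chr7:139561570-139777998, was the only one of the 9 genes with an 8-mer. It held 2 of them, at bases 7418 and 11153 of a 3′ UTR of 11357 bases that is longer than those of 99.0% of the 13778 genes searched. HIPK1, on the plus strand of chr1:113929324-113977869, held 3 matches of 7 bases in a 3′ UTR of 4357 bases, the first 2 of which lie so close that their printed windows overlap. In its 3′ UTR MDM2 held a single 7-mer, at base 87. MDM4 held a single one that lies in a 3′ UTR of one annotated transcript and in the coding sequence of the gene's canonical transcript. Outside the 3′ UTR, the coding sequence of the same transcript held 1 match of 7 bases in HIPK2 and 2 in MDM2, which are not printed. No 7-mer or 8-mer was found in HIPK3, SIAH1, SIAH2, WSB1 or CDKN1A, although HIPK3 and WSB1 each carried one 6-mer. Matches are common in long UTRs. Among the 210 genes whose UTR was within 1.25-fold of the length of HIPK2's, 77.6% held a 7-mer or 8-mer, against 44.2% for the length of HIPK1, 72.1% for MDM4, 55.1% for MDM2 and 22.6% of all genes searched. A match describes the letters of the message and was not tested as a binding site.

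**Figure D1:**
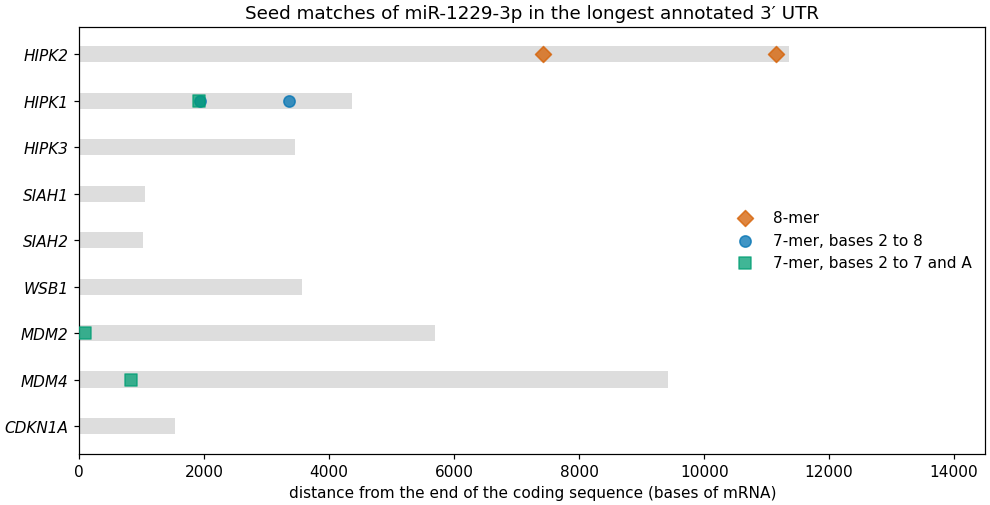
Seed matches of miR-1229-3p along the longest annotated 3′ UTR of the 9 genes, drawn from the end of the coding sequence in bases (grey bars, 3′ UTR; symbols, kind of match). HIPK2 has the longest bar and carries both 8-mers, HIPK1 has 3 matches of 7 bases of which 2 nearly coincide, and MDM2 and MDM4 have one 7-mer each.

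The 9 libraries held 17423969 to 28192775 estimated reads. Replicate 3 of the 20 nM group stood apart from the rest, at 47.4 on the first principal component (30.4% of the variance) where the other 8 libraries lay between -17.1 and 7.72. The tests were run with edgeR and 1 surrogate variable, a fitted term for variation that the groups do not explain, and that term took the value 0.907 in this library and -0.242 to 0.06 in the others. The fitted fold changes at 20 nM therefore lean on replicates 1 and 2, and can differ from ratios of the levels given below. Those levels are in CPM (reads scaled to the library total adjusted by its TMM factor) and are not corrected for the surrogate variable. Of the 12 adrenergic neuroblastoma markers 4 fell at 20 nM by the same edgeR test (33.3%, where 6.08% of all genes were lower). TH was among these 4, although it was near 0 in every library (0.122 to 0.914 CPM). Of 8 mesenchymal markers 1 rose (12.5%, where 7.8% of all genes were higher), and this was CD44, with only 1.34 to 3.4 CPM. The summed adrenergic markers ranged from 6816 to 6898 CPM in Ctrl., 7126 to 7588 at 10 nM and 6746 to 7914 at 20 nM, and the mesenchymal ones from 1236 to 1321, 1203 to 1328 and 1028 to 1283 CPM, with the highest adrenergic and the lowest mesenchymal sum in the 20 nM library that stood apart. Their part in the results below was not tested.

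HIPK2 had 135, 121 and 128 CPM in the 3 Ctrl. libraries, 76.6, 81.2 and 87.4 CPM at 10 nM, and 65, 66.1 and 88 CPM at 20 nM. All 6 mimic libraries lay below all 3 controls, whereas the 10 nM and 20 nM libraries overlapped, because replicate 3 at 20 nM sat with the 10 nM libraries. The means were 128 ± 6.89 CPM in Ctrl., 81.7 ± 5.40 CPM at 10 nM and 73.1 ± 13 CPM at 20 nM (SD, n = 3). In the fit HIPK2 stood at 61.7% of control at 10 nM (log2 fold change -0.70, SE 0.052) and at 50.1% at 20 nM (-0.997, SE 0.061). Counted from the lowest fold change, it was gene 140 of 14943 at 10 nM and gene 116 at 20 nM. The step from 10 nM to 20 nM was smaller than the step from Ctrl. to 10 nM, with a log2 fold change of -0.30 (SE 0.058). Against its same-numbered control the log2 ratio of CPM at 20 nM was -1.05 in replicate 1, -0.87 in replicate 2 and -0.54 in replicate 3, so replicate 3 had the smallest difference, close to its own value of -0.55 at 10 nM.

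**Figure D2:**
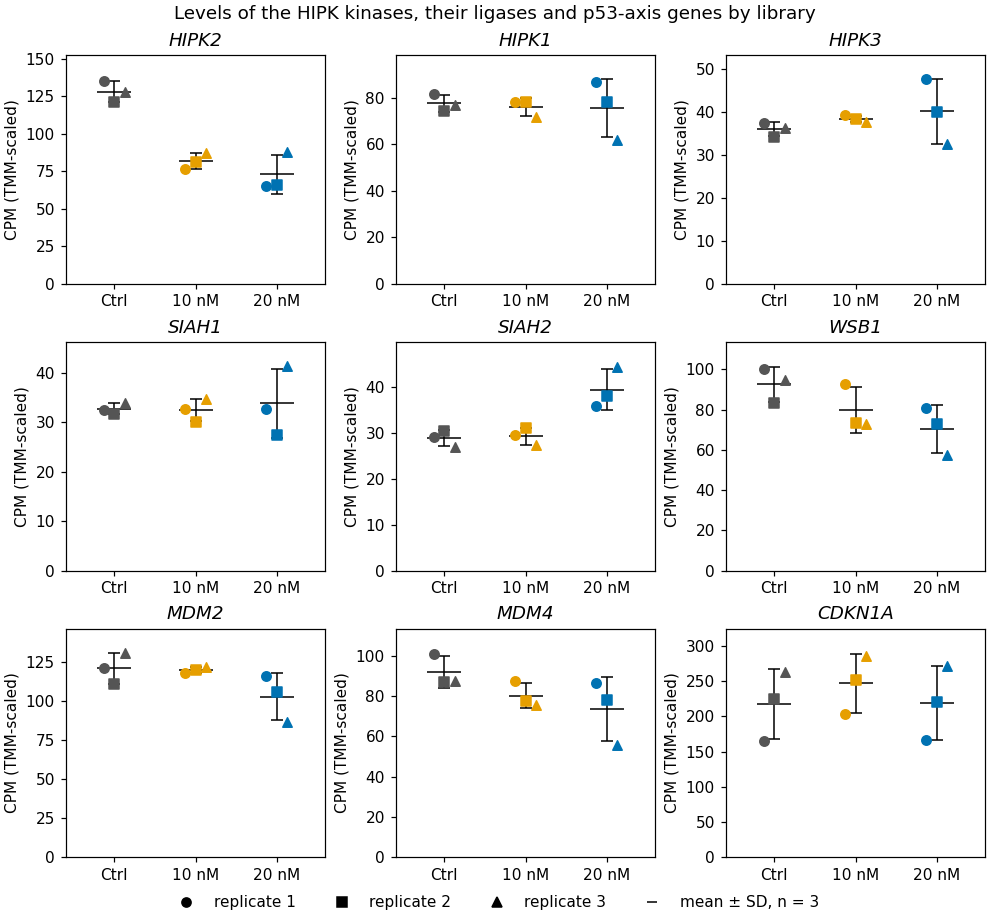
Level of each of the 9 genes in the 9 libraries in TMM-scaled CPM on a linear axis from 0, by group (symbols, replicates; bars, mean ± SD, n = 3). In HIPK2 the 6 mimic libraries lie below the 3 controls, SIAH2 is higher in the 3 libraries at 20 nM, and in CDKN1A the replicates are spread in the same order in each group.

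The paralogues did not share the pattern of HIPK2. HIPK1, a closely related kinase that likewise modifies p53 and other transcription regulators, had 81.6, 74.5 and 77.0 CPM in Ctrl., 78.2, 78.2 and 71.8 CPM at 10 nM, and 86.7, 78.3 and 62.0 CPM at 20 nM. The 3 groups overlapped, and both the highest and the lowest value came from the 20 nM group. HIPK1 passed no test, neither at 10 nM (log2 fold change 0.01, edgeR adjusted p = 0.925) nor at 20 nM (0.12, edgeR adjusted p = 0.155). At 20 nM the 95% interval, not adjusted for the number of genes, ran from 0.01 to 0.23. A decrease of the size seen for HIPK2 lies outside the interval of this fit. Over the alternative fits the HIPK1 value at 20 nM ranged from -0.05 to 0.15, so its sign was not settled. HIPK1 has more 7-mer matches in its 3′ UTR than any of the other 8 genes. The 222 genes with at least 3 7-mer or 8-mer matches had a median log2 fold change of -0.09 at 20 nM.

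HIPK3, the paralogue known for work in stress signalling and androgen receptor regulation, had 37.5, 34.2 and 36.3 CPM in Ctrl., 39.2, 38.3 and 37.6 CPM at 10 nM, and 47.7, 40.1 and 32.6 CPM at 20 nM. Its 10 nM libraries lay just above the controls, and at 20 nM replicates 1 and 2 were above all controls while replicate 3 was below them. In the fit HIPK3 rose at 20 nM by 0.32 on the log2 scale (SE 0.069, edgeR adjusted p = 0.00911). In the trend over concentration, given per 20 nM, it rose by 0.25 (SE 0.066, edgeR adjusted p = 0.017). That call depends on how the library that stood apart is treated, since without a surrogate variable the value at 20 nM was 0.15 (edgeR adjusted p = 0.435) and with that library left out it was 0.28 (edgeR adjusted p = 0.021). It also rests on replicate 1 at 20 nM, without which the value was 0.14 at 20 nM (edgeR adjusted p = 0.297) and 0.07 in the trend (edgeR adjusted p = 0.518), and the trend missed the threshold without Ctrl. replicate 2 (0.20, edgeR adjusted p = 0.0629).

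The makeup of the HIPK messages shifted accordingly. HIPK2 took 53.1%, 52.7% and 53.1% of the summed HIPK1, HIPK2 and HIPK3 CPM in Ctrl., 39.5%, 41.1% and 44.4% at 10 nM, and 32.6%, 35.8% and 48.2% at 20 nM. This share was lower in all 6 mimic libraries than in any control, and replicate 3 at 20 nM was nearest to the controls. These are shares of reads, and HIPK2 has the longest transcript of the 3, so its share of molecules is smaller. The sum itself fell short of the 242 ± 12 CPM of Ctrl. in both mimic groups, with 196 ± 2.08 CPM at 10 nM and 189 ± 8.96 CPM at 20 nM (SD, n = 3). Scaled by the length of the canonical transcript, the level in Ctrl. was 9.48 ± 0.434 CPM per kb for HIPK1, 8.35 ± 0.450 for HIPK2 and 4.73 ± 0.218 for HIPK3. At 20 nM the same scale gave 9.23 ± 1.53, 4.77 ± 0.847 and 5.27 ± 0.991 CPM per kb, with HIPK2 and HIPK3 no longer apart beyond their spread. HIPK4 was not among the genes of the table.

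**Figure D3:**
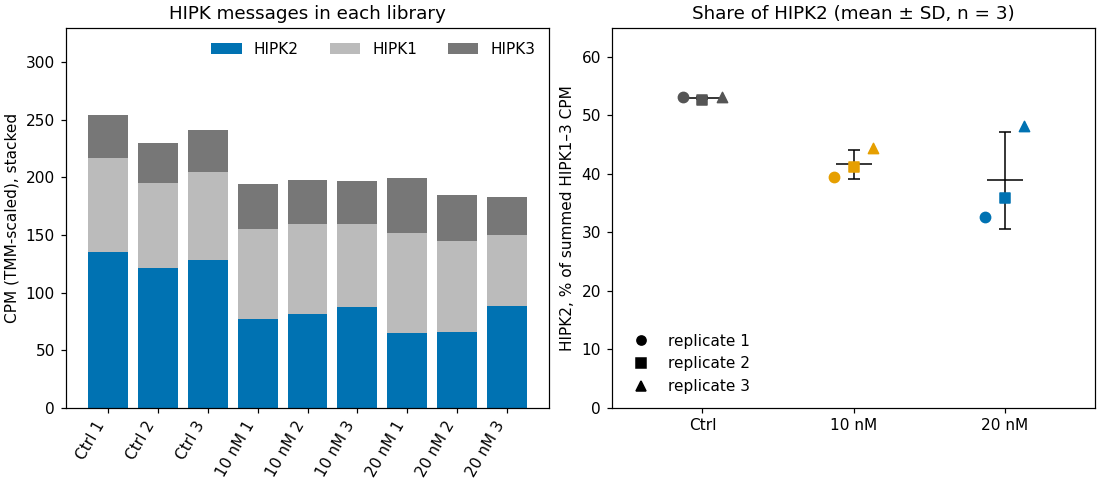
Left, stacked TMM-scaled CPM of HIPK2, HIPK1 and HIPK3 in each library. Right, HIPK2 as a percent of the summed CPM of the 3 kinases (symbols, replicates; bars, mean ± SD, n = 3), which is close to 53% in each Ctrl. library and lower in each mimic library, with replicate 3 at 20 nM nearest to the controls.

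Read over the 8 genes other than HIPK2, few tests passed an edgeR adjusted p of 0.05. At 10 nM 0 of the 8 passed, by edgeR and by DESeq2 alike, where 0.649% of all genes passed by edgeR. An unadjusted edgeR p under 0.05 was found for 3 of the 8 and for 2084 of all 14943 genes. In the fit without 20 nM replicate 3 and with the number of surrogate variables estimated anew, the 10 nM comparison did pass for WSB1 (edgeR adjusted p = 0.0188) and MDM4 (edgeR adjusted p = 0.0134). At 20 nM 2 of the 8 rose (HIPK3 and SIAH2), as they did with DESeq2, where 13.9% of all genes passed, 7.8% higher and 6.08% lower. Between 20 nM and 10 nM 1 of the 8 was higher (SIAH2), where 2.79% of all genes passed and 1.91% were higher. In the trend 4 of the 8 passed, HIPK3 and SIAH2 higher and WSB1 and MDM4 lower, where 17.6% of all genes passed, 9.92% higher and 7.64% lower. With so few genes these shares are not read as more than the background. Where all libraries of a group lay above or below those of another, the share of all genes that part in this way was not counted. The comparisons of 10 nM and of 20 nM with Ctrl. share the Ctrl. libraries, and the trend uses all 9.

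**Figure D4:**
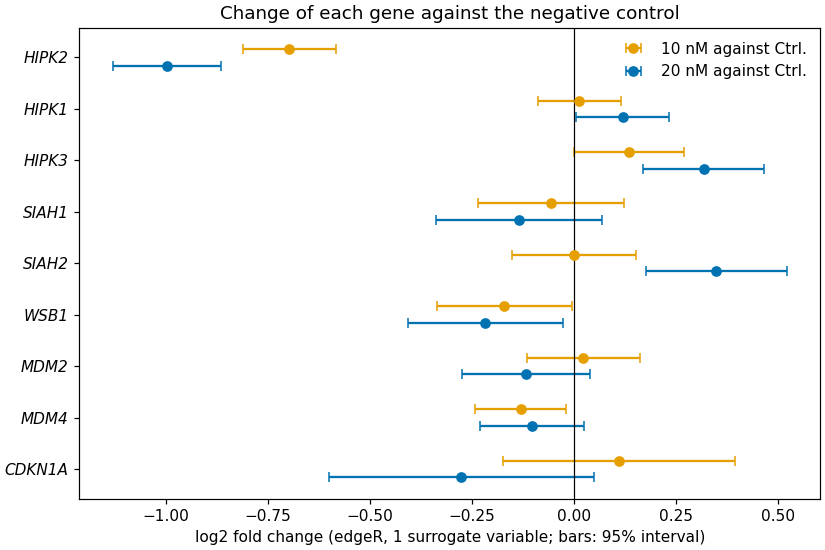
Log2 fold change of each gene against Ctrl. from the edgeR fit with 1 surrogate variable, at 10 nM and 20 nM (points, estimates; bars, 95% intervals; line at 0, no change). HIPK2 stands at -0.70 and -0.997, HIPK3 and SIAH2 lie above 0 at 20 nM, and the other intervals reach or nearly reach 0.

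Of the ligases that mark HIPK2 for degradation, SIAH2 was the one with a higher message. SIAH2 and SIAH1 are RING-finger ligases, and SIAH2 is also known for tuning the hypoxia response. SIAH2 had 29.1, 30.5 and 27.0 CPM in Ctrl., 29.5, 31.0 and 27.4 CPM at 10 nM, and 35.9, 38 and 44.5 CPM at 20 nM. All 3 libraries at 20 nM were above all libraries of the other groups, while the 10 nM values matched the controls closely. SIAH2 rose at 20 nM against Ctrl. (log2 fold change 0.35, SE 0.080, edgeR adjusted p = 0.0117), against 10 nM (0.35, SE 0.076, edgeR adjusted p = 0.0288) and in the trend (0.38, SE 0.090, edgeR adjusted p = 0.0105). At 10 nM its log2 fold change was 0.00 (edgeR adjusted p = 1), with a 95% interval of -0.15 to 0.15. The call at 20 nM was lost without Ctrl. replicate 3 (0.28, edgeR adjusted p = 0.054) or without 20 nM replicate 2 (0.34, edgeR adjusted p = 0.0637), with values still above 0, and without the library that stood apart it was 0.36 (edgeR adjusted p = 0.00265). In the trend the adjusted p without these 2 libraries was 0.0521 and 0.078, and the step from 10 nM missed the threshold without 10 nM replicate 1 or 3 or 20 nM replicate 1 or 2 (edgeR adjusted p = 0.0568, 0.129, 0.086 and 0.109).

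SIAH1, itself described as a p53-responsive gene, had 32.5, 31.7 and 33.9 CPM in Ctrl., 32.7, 30.0 and 34.6 CPM at 10 nM, and 32.7, 27.4 and 41.3 CPM at 20 nM. The groups overlapped, and the 20 nM group held both the lowest and the highest library. SIAH1 passed no test (log2 fold change -0.14 at 20 nM, edgeR adjusted p = 0.385, 95% interval -0.34 to 0.07). SIAH1 and SIAH2 reads stood in a mean ratio of 1.14 ± 0.106 in Ctrl. libraries, 1.11 ± 0.147 with 10 nM and 0.854 ± 0.115 with 20 nM mimic (SD, n = 3). Per library it was 1.12, 1.04 and 1.25 in Ctrl., 1.11, 0.967 and 1.26 at 10 nM, and 0.911, 0.721 and 0.929 at 20 nM, so that SIAH1 reads outnumbered SIAH2 reads in 5 of the 6 libraries outside the 20 nM group and in 0 of 3 within it.

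WSB1, the substrate receptor of a cullin ligase that also targets HIPK2, had 99.9, 83.1 and 94.7 CPM in Ctrl., 92.7, 73.3 and 72.6 CPM at 10 nM, and 81.0, 72.7 and 57.6 CPM at 20 nM. The 20 nM libraries were all below the controls, the 10 nM libraries straddled the lowest of them, and each mimic library was below the control of its own number. WSB1 fell in the trend (log2 fold change -0.30, SE 0.083, edgeR adjusted p = 0.0246). The comparison at 20 nM alone did not pass (-0.22, edgeR adjusted p = 0.123). The trend was lost without Ctrl. replicate 1 (-0.23, edgeR adjusted p = 0.106), Ctrl. replicate 3 (-0.25, edgeR adjusted p = 0.104) or 20 nM replicate 2 (-0.27, edgeR adjusted p = 0.0926). At 20 nM it passed without Ctrl. replicate 2 (edgeR adjusted p = 0.0401) or 10 nM replicate 1 (edgeR adjusted p = 0.0278).

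MDM2 and MDM4, which restrain p53, showed at most small differences. MDM4 had 101, 87.1 and 87.4 CPM in Ctrl., 87.3, 77.8 and 75.8 CPM at 10 nM, and 86.5, 78.3 and 56.0 CPM at 20 nM. The 20 nM libraries were all below the controls, by a narrow margin in replicate 1 and by the widest in replicate 3, which stood apart. MDM4 fell in the trend (log2 fold change -0.20, SE 0.062, edgeR adjusted p = 0.0415) and passed neither at 10 nM (-0.13, edgeR adjusted p = 0.286) nor at 20 nM (-0.10, edgeR adjusted p = 0.28). The trend was lost in 8 of the 18 alternative fits, whereas the comparison at 20 nM passed in the fit with surrogate variables estimated anew and 20 nM replicate 3 left out (-0.15, edgeR adjusted p = 0.00861). Without 20 nM replicate 3 the trend was -0.14 (edgeR adjusted p = 0.131), and without Ctrl. replicate 1 the trend was -0.12 (edgeR adjusted p = 0.213). Leaving out Ctrl. replicate 3, 10 nM replicate 2 or 20 nM replicate 2 gave the trend an edgeR adjusted p = 0.0942, 0.0537 and 0.11.

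MDM2, both a ligase for p53 and a p53 target gene, had 121, 111 and 131 CPM in Ctrl., 118, 120 and 122 CPM at 10 nM, and 116, 106 and 86.4 CPM at 20 nM. The 20 nM libraries were below all 10 nM libraries and overlapped the controls. MDM2 passed no test (log2 fold change -0.12 at 20 nM, edgeR adjusted p = 0.329, 95% interval -0.27 to 0.04), although its trend passed without Ctrl. replicate 2 (-0.24, edgeR adjusted p = 0.0221) or 20 nM replicate 1 (-0.27, edgeR adjusted p = 0.0393). MDM2 and MDM4 reads stood in a ratio of 1.32 ± 0.157 in Ctrl. libraries, 1.5 ± 0.135 with 10 nM and 1.41 ± 0.113 with 20 nM mimic (SD, n = 3), so the groups did not separate.

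CDKN1A, the p21 gene, was the most abundant of the 9 per length, with 103 ± 23.4 CPM per kb of canonical transcript in Ctrl., whereas the other 8 ranged from 4.73 (HIPK3) to 18.1 (WSB1). Below it came WSB1, MDM2 and SIAH1 (18.1 ± 1.69, 16.1 ± 1.37 and 15.5 ± 0.519 CPM per kb), where the MDM2 libraries overlapped those of both neighbours while WSB1 lay above SIAH1 in all Ctrl. libraries. SIAH2 followed at 12.5 ± 0.761, and then HIPK1, MDM4 (9.14 ± 0.782) and HIPK2, where MDM4 overlapped both kinases and HIPK1 lay above HIPK2 in all Ctrl. libraries. CDKN1A had 165, 225 and 263 CPM in Ctrl., 203, 252 and 286 CPM at 10 nM, and 166, 220 and 271 CPM at 20 nM. The groups overlapped throughout, and in each of them replicate 1 was the lowest and replicate 3 the highest, so that most of the spread ran between replicate numbers. Against the same-numbered control, the log2 ratio of CPM in replicates 1, 2 and 3 was 0.30, 0.17 and 0.12 at 10 nM. At 20 nM it was 0.01, -0.03 and 0.05 (all rounded).

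CDKN1A passed no test in the fit. At 10 nM it stood 0.11 above Ctrl. on the log2 scale (edgeR adjusted p = 0.75), and at 20 nM the log2 fold change was -0.28 (SE 0.15, edgeR adjusted p = 0.256, 95% interval -0.60 to 0.05). The value between 20 nM and 10 nM was -0.39 (edgeR adjusted p = 0.195). The fitted value at 20 nM differs from the near-equal mean levels, 218 ± 49.5 CPM in Ctrl. and 219 ± 52.8 CPM at 20 nM. Over the alternative fits it ranged from -0.46 to 0.01, and without Ctrl. replicate 1 it was -0.43 (edgeR adjusted p = 0.0477).

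The wider pathway was read through gene lists around the 9 genes. Among 10 related kinases of the DYRK and CLK families and PRPF4B, 1 rose and 1 fell at 20 nM, where 13.9% of all genes passed. DYRK2, which like HIPK2 can phosphorylate p53, rose from 69 ± 3.52 CPM in Ctrl. and 70.6 ± 1.11 CPM at 10 nM to 104 ± 5.10 CPM at 20 nM (SD, n = 3; log2 fold change 0.58, edgeR adjusted p = 4.79e-05). DYRK1A, a kinase of neurodevelopment with 7 seed matches of 7 or 8 bases in its 3′ UTR, fell at 20 nM by 0.24 on the log2 scale (edgeR adjusted p = 0.0271). PRPF4B, a splicing kinase, fell in the trend only, by 0.18 (edgeR adjusted p = 0.0348). No 7-mer or 8-mer match was found in PRPF4B or DYRK2. The median log2 fold change of the list was -0.03 at 20 nM, against 0.00 over all genes.

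Of 29 HIPK2 partners and substrates, 2 rose and 1 fell at 20 nM (10.3%, against 13.9% of all genes), and 4 rose and 1 fell in the trend (17.2%, against 17.6%), with a median of -0.03 at 20 nM. CTNNB1, encoding β-catenin, which HIPK2 is known to mark for degradation, rose from 211 ± 14.4 CPM in Ctrl. to 319 ± 13.1 CPM at 20 nM (SD, n = 3; log2 fold change 0.63, edgeR adjusted p = 2.91e-05). ZBTB4, a repressor of p21 with a 7-mer match in its 3′ UTR, rose by 0.26 at 20 nM (edgeR adjusted p = 0.0308). CTNNB1 held no 7-mer or 8-mer match. DVL1 of the Wnt pathway, named after its value was seen, rose in the trend by 0.21 (edgeR adjusted p = 0.0155).

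Of 19 further genes of the SIAH and WSB1 ligases and their substrates, NUMB was the one past the threshold at both concentrations, and 10.5% of the list passed at 20 nM against 13.9% of all genes. NUMB, an endocytic inhibitor of Notch that SIAH1 targets, had 79.5 ± 0.592 CPM in Ctrl., 61.9 ± 3.96 CPM at 10 nM and 50.3 ± 3.81 CPM at 20 nM (SD, n = 3). It fell by 0.34 at 10 nM (edgeR adjusted p = 0.00659) and by 0.58 at 20 nM on the log2 scale (edgeR adjusted p = 3.87e-05). Like HIPK2 it carries an 8-mer seed match, as does CUL5, the cullin of the WSB1 ligase, which fell in the trend by 0.23 (edgeR adjusted p = 0.0362) and not at 20 nM alone (-0.19, edgeR adjusted p = 0.0922). EGLN1, the oxygen-sensing prolyl hydroxylase, rose in the trend by 0.16 (edgeR adjusted p = 0.0417). HIF1A, named after its value was seen, was the one gene of this list higher at 20 nM, by 0.14 (edgeR adjusted p = 0.044).

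Among 34 regulators of p53, 2 rose and 5 fell at 20 nM, that is 20.6% of the list against 13.9% of all genes, with a median of -0.02. USP10, a deubiquitinase that stabilises p53, rose from 94.4 ± 2.64 to 117 ± 1.26 CPM (SD, n = 3; log2 fold change 0.30, edgeR adjusted p = 0.00146), and HDAC1, a p53 deacetylase, rose by 0.29 (edgeR adjusted p = 0.00702). SETD7, a lysine methyltransferase of p53 with an 8-mer match, fell by 0.47 (edgeR adjusted p = 0.00156). PPP1R13B, the ASPP1 cofactor of p53 in apoptosis, fell by 0.30 (edgeR adjusted p = 0.00331), as did CHEK1, the checkpoint kinase, by 0.30 (edgeR adjusted p = 0.00937). TRIM24 and KMT5A, named after their values were seen, were the other 2 that fell, at -0.16 and -0.18. No 7-mer or 8-mer match was found in the 3′ UTR of USP10, HDAC1, PPP1R13B or CHEK1, although CHEK1 held 1 in its coding sequence. The members that moved thus include both activators and inhibitors of p53.

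Of 26 p53 target genes other than CDKN1A and MDM2, 2 rose and 2 fell at 20 nM, 15.4% of the list against 13.9% of all genes, with a median of -0.08. ZMAT3, an RNA-binding tumour suppressor, rose from 55.8 ± 1.96 CPM to 71.8 ± 3.88 CPM (SD, n = 3; log2 fold change 0.41, edgeR adjusted p = 0.000321). BBC3, which encodes the apoptosis inducer PUMA, rose by 0.38 (edgeR adjusted p = 0.0175). GADD45A fell by 0.59 in the fit (edgeR adjusted p = 0.0169) but had 29.5 ± 5.77 CPM in Ctrl. and 30.9 ± 16.4 CPM at 20 nM, and without a surrogate variable its value was 0.07 (edgeR adjusted p = 0.914). GDF15, named after its value was seen, was at -0.93 (edgeR adjusted p = 0.0414). No 7-mer or 8-mer match was found in ZMAT3, BBC3 or GADD45A.

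How firmly these list genes passed differed. At 20 nM, DYRK2, CTNNB1, NUMB, USP10, HDAC1, SETD7, PPP1R13B and ZMAT3 passed whichever single library was left out, although NUMB at 10 nM and PPP1R13B at 20 nM did not pass without a surrogate variable (edgeR adjusted p = 0.274 and 0.104). Nor did DYRK1A (edgeR adjusted p = 0.111) and CHEK1 (-0.19, edgeR adjusted p = 0.218) at 20 nM. DYRK1A at 20 nM was lost without Ctrl. replicate 1 or 3 or 20 nM replicate 2 (edgeR adjusted p = 0.0509, 0.0771 and 0.18). ZBTB4 was lost without Ctrl. replicate 3 or 20 nM replicate 1 or 2 (edgeR adjusted p = 0.116, 0.096 and 0.0677), and BBC3 without Ctrl. replicate 1 or 3 or 20 nM replicate 2 (edgeR adjusted p = 0.0665, 0.053 and 0.153). CHEK1 was also lost without 20 nM replicate 2 (edgeR adjusted p = 0.0665), and GADD45A without Ctrl. replicate 3 or 20 nM replicate 1 (edgeR adjusted p = 0.0557 and 0.232). CUL5, PRPF4B and EGLN1, which passed in the trend alone, were each lost without any one of several libraries, Ctrl. replicates 1 and 3 and 20 nM replicates 2 and 3 among them, with the least support without Ctrl. replicate 3 for CUL5 (edgeR adjusted p = 0.169), Ctrl. replicate 1 for PRPF4B (0.189) and 20 nM replicate 2 for EGLN1 (0.213). The genes named after their values were seen were not followed through the alternative fits.

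**Figure D5:**
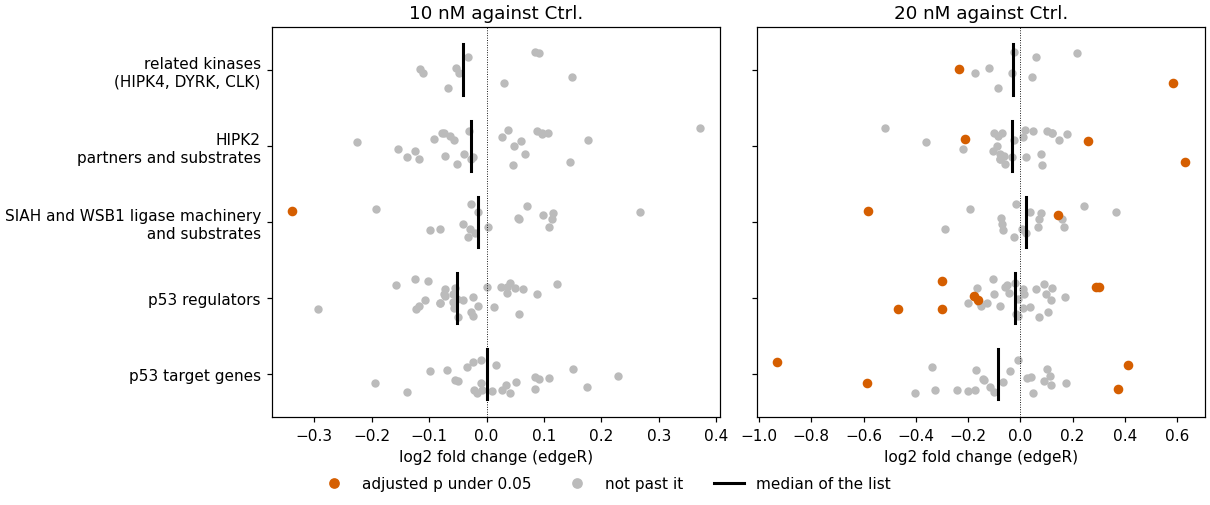
Log2 fold change (edgeR) of each gene in the 5 pathway lists at 10 nM (left) and 20 nM (right), with different horizontal scales; orange points have an adjusted p under 0.05 and black bars are list medians. The medians lie close to 0 in both panels, and the points that passed lie on both sides at 20 nM.

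The genes whose level followed HIPK2 most closely over the 9 libraries, among 13682 with a mean of at least 1 CPM, were MIS18A (Pearson r = 0.988 with HIPK2 on log2 CPM), EFR3B (0.983), SH3PXD2B (0.982), PTPN1 (0.978) and TRAK1 (0.970). MIS18A, a factor that prepares centromeres for new CENP-A, had 23.3 ± 1.21 CPM in Ctrl., 15.7 ± 1.14 CPM at 10 nM and 14.3 ± 2.32 CPM at 20 nM (SD, n = 3). SH3PXD2B, a scaffold of invadopodia with an 8-mer and a 7-mer match, had 153 ± 1.48, 114 ± 3.85 and 101 ± 7.67 CPM. EFR3B and PTPN1 each held a 7-mer match. No 7-mer or 8-mer was found in the 3′ UTR of MIS18A or TRAK1, although TRAK1 held 1 in its coding sequence. The points share libraries, depth and groups, so the correlations describe the order of 3 groups more than 9 separate values, and without 20 nM replicate 3 only 2 of the 5 stayed in the top 5. Among the genes of the HIPK2 circuit, r with HIPK2 was 0.478 for WSB1, 0.355 for MDM4, 0.285 for MDM2, 0.233 for SIAH1, 0.066 for CDKN1A, -0.126 for HIPK1, -0.512 for SIAH2 and -0.608 for HIPK3.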

How the data were processed

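Reads were mapped by the authors with salmon onto GRCh38.p13 (Ensembl annotation 107), summed to genes by symbol and filtered with filterByExpr. The version of salmon and the use of strand are not given in the sources used here, so overlapping genes, antisense genes and near-identical copies may exchange reads. The deposited table holds estimated counts, of which 88.8% are not whole numbers, for 14943 genes. The authors' deposited comparisons (log2 fold change, p-value, FDR) and a deposited log2 table corrected for surrogate variables were not used.

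Groups and replicate numbers came from the sample titles. Estimated counts were rounded, scaled by TMM and tested with edgeR 4.0.16 (R 4.3.3, quasi-likelihood test, all 9 libraries in 1 fit, Benjamini-Hochberg adjustment over all genes, threshold 0.05). Surrogate variables came from sva 3.50.0 (num.sv, method be, seed 1, held between 1 and 3) on log2 CPM with a prior count of 2, and 1 was used in each of the fits, by group and by concentration. Comparisons were 10 nM and 20 nM against Ctrl., 20 nM against 10 nM, and a linear trend over concentration, expressed per 20 nM. Standard errors were obtained from the fold change and its F-statistic. The code was tested on simulated data. Counting error was at most 4.6% of a level for any of the 9 genes. Alternatives were RLE factors, library totals, a filter at 1 CPM, other surrogate settings, DESeq2 1.42.0, a replicate block, each library left out, and, added after the data were seen, 2 fits without 20 nM replicate 3.

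The 9 genes and the lists were chosen with earlier results of these data known. Named genes were the 9, up to 3 higher and 3 lower genes of each other list with the smallest adjusted p in the trend, and the 5 genes with the highest r with HIPK2. Some genes that this rule names are not reported here. For seed matches, 14105 genes were matched to GENCODE 44 by identifier and a further 768 by symbol, which left 70 unmatched.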

Additional observations from a re-analysis of the deposited data

How the results depend on the processing

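HIPK2 was selected on its fold change in these same libraries, so its values in the 18 alternative fits are a description and no support for its fall. They ranged from -0.73 to -0.64 on the log2 scale at 10 nM and -1.03 to -0.81 at 20 nM. Between the concentrations they ranged from -0.32 to -0.16, and in the trend from -1.001 to -0.81. RLE factors and the filter at 1 CPM changed no call of a named gene. Counts over all genes moved more. Without a surrogate variable, the edgeR counts were 5 genes at 10 nM (97 in the reported fit), 954 at 20 nM (2074), 67 between 20 nM and 10 nM (417) and 1236 in the trend (2624). In that fit 1 of the 8 genes other than HIPK2 passed at 20 nM and in the trend each. GADD45A turned to 0.067 at 20 nM and in the trend, the cause of which was not tested. DESeq2 called 218 genes at 10 nM. Leaving out 1 library gave 34 to 160 genes at 10 nM, 1074 to 2656 at 20 nM, 111 to 462 between concentrations and 1369 to 3318 in the trend. Without 20 nM replicate 3 and with the number of surrogate variables estimated anew, the counts were 1318, 4370 and 1495 for the first 3 comparisons, and WSB1, MDM4 and CDKN1A then passed at 20 nM (edgeR adjusted p = 0.000706, 0.00861 and 0.0189), WSB1 and MDM4 at 10 nM (0.0188 and 0.0134), and CDKN1A between the concentrations (0.00373). Of the 5 genes most like HIPK2, 2 stayed in the top 5 without that library.

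Same-numbered libraries of different groups correlated at 0.029 to 0.185 in their deviations from the group means, and differently numbered ones at -0.17 to 0.032. Since 1 pair was under 0.1 (0.029, replicate 2 at 10 nM and 20 nM) and no label ties the numbers to a shared culture, they were not taken as pairs. The remaining same-numbered pairs, at 0.107 to 0.185, all lay above every differently numbered pair, so the reported fit may leave out a tie between same-numbered libraries. The library names do group the libraries by number, with 1 letter for each. A batch shared by number was not tested, and several of the calls below differ from the reported fit. With a replicate block in place of the surrogate variable, 3 genes passed at 10 nM and 124 between concentrations. HIPK2 was at -0.65, -0.82, -0.17 and -0.82 in the 4 comparisons. HIPK3 did not pass at 20 nM under the block (0.14, edgeR adjusted p = 0.352), SIAH2 did (0.45, 0.0182) and so did WSB1 (-0.40, 0.0247) and MDM4 (-0.33, 0.0477), and CDKN1A was at 0.01 (0.943). Of the list genes, CHEK1 (-0.19, edgeR adjusted p = 0.067), PPP1R13B (-0.22, 0.0637) and GADD45A (-0.01, 0.97) did not pass at 20 nM under the block, nor NUMB at 10 nM (-0.36, 0.134) or EGLN1 in the trend (0.16, 0.0702). Counting error was at most 4.6% of a level for the 9 genes.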
